A study of Homo sapiens with 3 samples.

Results

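The Krüppel-like factor (KLF) genes were examined in H660 cells, a human neuroendocrine prostate cancer (NEPC) cell line, after treatment with JG231, an allosteric inhibitor of the chaperone HSP70. The genes were chosen by name as KLF2, KLF3, KLF4, KLF5, KLF6, KLF7, KLF9, KLF10, KLF11 and KLF13, and are 10 of the 18 KLF genes among the 58735 genes of the deposited expression table. These genes, and the lists set beside them below, were chosen with earlier results of these data known. The table holds 3 libraries of parental H660 cells, 1 each from cells given the vehicle DMSO, 2.5 μM JG231 or 5 μM JG231 for 24 h. With 1 library per condition there was no replicate error, no test could be run, and every difference below is between single libraries. The sample records call the cell type prostatic adenocarcinoma, while the design text of the series calls the line neuroendocrine. In the data, 9 of 9 neuroendocrine markers were over 1 FPKM in every library, and 0 of 5 prostate luminal markers reached that value, with KLK2 listed at 0 throughout.

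KLF proteins are transcription factors that bind CACCC boxes and GC-rich elements through a cluster of C-terminal zinc fingers that is conserved across the family, while their N-terminal parts differ and recruit different partners. KLF2, KLF4, KLF5, KLF6 and KLF7 mostly act as activators and recruit acetyltransferases. KLF3 represses through CtBP, and KLF9, KLF10, KLF11 and KLF13 bind the SIN3 corepressor. Several members are early response genes whose transcripts change quickly with stress, growth factors or hormones, and in the prostate KLF5 and KLF6 have been studied as regulators of epithelial growth and as tumour suppressors.

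The stretches upstream of KLF6 and KLF2, the members with the largest increases, and of KLF13, the member with the largest decrease, are shown because they are the regulatory DNA next to the transcripts that differed most. They are reference sequence from RefSeq (GRCh38.p14), read 5′ to 3′ on the strand of the gene, and none was measured in these cells. KLF6 lies at chr10:3785282-3785459 on the minus strand, KLF2 at chr19:16324576-16324825 on the plus strand and KLF13 at chr15:31326585-31326834 on the plus strand. The windows of KLF2 and KLF13 run over the 250 bases before the annotated start, and that of KLF6 over the first 178 of these, since an exon of another transcript covers the rest. Capitals mark the letters of the GC box (GGGCGG), the CACCC box and the MEF2 element on either strand.
KLF6: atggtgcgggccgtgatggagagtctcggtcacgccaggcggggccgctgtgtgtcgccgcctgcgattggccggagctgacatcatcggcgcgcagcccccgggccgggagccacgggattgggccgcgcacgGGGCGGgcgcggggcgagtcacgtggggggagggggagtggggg
KLF2: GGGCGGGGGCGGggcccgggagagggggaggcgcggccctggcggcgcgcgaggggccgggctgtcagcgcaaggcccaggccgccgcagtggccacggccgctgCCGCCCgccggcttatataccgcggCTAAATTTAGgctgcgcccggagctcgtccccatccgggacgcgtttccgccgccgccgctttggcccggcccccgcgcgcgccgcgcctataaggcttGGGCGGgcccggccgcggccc
KLF13: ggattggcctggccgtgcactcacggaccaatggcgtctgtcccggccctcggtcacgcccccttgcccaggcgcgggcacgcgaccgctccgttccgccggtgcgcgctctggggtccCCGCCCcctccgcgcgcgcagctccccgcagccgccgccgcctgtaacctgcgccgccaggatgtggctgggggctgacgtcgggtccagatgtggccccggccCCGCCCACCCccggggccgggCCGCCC
The KLF2 stretch held 4 GC boxes and 1 MEF2 element, an AT-rich site, and no CACCC box. The KLF13 stretch held 3 GC boxes and 1 CACCC box, which overlaps a GC box by 1 base, and the KLF6 stretch 1 GC box.

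Expression values are FPKM, fragments per kilobase of transcript, scaled to sequencing depth, so levels are per length and can be compared between genes within a library. The steps between low values gave about 16.1 M fragments in the DMSO library, 20.4 M at 2.5 μM and 24.1 M at 5 μM. Changes are log2((FPKM with JG231 + 0.1)/(FPKM with DMSO + 0.1)), which understates the change of low genes. In place of a replicate error, each change is set against a spread, which is the median absolute deviation, scaled to a standard deviation, of the log2 difference of 5 μM against 2.5 μM among the 500 genes of most similar mean FPKM. The spread contains any effect of dose and says nothing about variation between DMSO cultures. Intervals given with a change are 95% exact binomial (Clopper-Pearson) intervals from approximate fragment numbers, and cover counting error only, since copies made by PCR are not independent molecules.

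Most of the KLF transcripts were higher after JG231. At 2.5 μM, 8 of the 10 members were higher than in DMSO and 2 were lower by more than 0.25 on the log2 scale, the threshold of the study's methods, and at 5 μM 7 were higher and 1 was lower. The decrease of KLF7 at 2.5 μM was within its spread. KLF6 showed the largest increase, 6.82-fold at 2.5 μM and 7.56-fold at 5 μM, followed by KLF2 with 5.28-fold and 5.47-fold. KLF13 was lower at both doses by more than its spread, with 1.84 times more in DMSO than at 2.5 μM and 3.41 times more than at 5 μM. The median log2 change over the 10 members was 1.49 at 2.5 μM and 1.35 at 5 μM.

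Over all genes with an FPKM over 1 in either library compared, the same threshold gave 36.4% higher and 43.4% lower at 2.5 μM, and 36.5% higher and 45.1% lower at 5 μM, with medians of -0.08 and -0.11. KLF2 and KLF9 passed that FPKM filter only through the JG231 libraries, so they could not have been counted as lower. Among the 8 members over 1 FPKM in DMSO, 6 were higher and 2 lower at 2.5 μM, and 5 were higher and 1 lower at 5 μM. The corresponding shares of all genes over 1 FPKM in DMSO were 32.3% and 46.2% at 2.5 μM, and 32.4% and 48.2% at 5 μM. At the stricter threshold of 1 on the log2 scale, 7 members were higher at 2.5 μM and 6 at 5 μM, against 12.9% and 14.7% of all genes. By that threshold 0 members were lower at 2.5 μM and 1, KLF13, at 5 μM, against 21.7% and 24.3% of all genes. Without KLF2 and KLF9, 5 of the 8 members over 1 FPKM in DMSO were higher by that threshold at 2.5 μM and 4 at 5 μM, against 8.53% and 10.2% of all genes over 1 FPKM in DMSO, and 0 and 1 were lower, against 23.1% and 25.9%. The median log2 changes of these 8 members were 1.28 and 1.14, and those of all genes over 1 FPKM in DMSO were -0.16 and -0.20. Rescaling the libraries without mitochondrial and small RNA genes put the median of the 13785 genes averaging 1 FPKM or more at -0.38 at 5 μM, against -0.01 as deposited, and the members then split into 7 higher and 3 lower at that dose. The lower members under that rescaling were KLF5, KLF7 and KLF13.

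**Figure D1:**
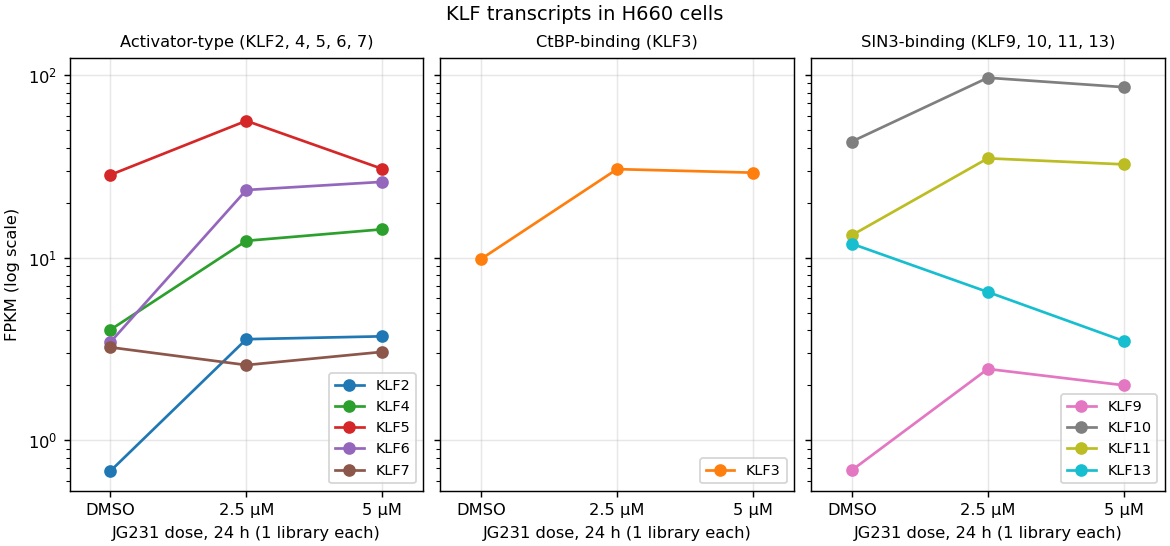
FPKM on a log axis of each KLF transcript in the DMSO, 2.5 μM and 5 μM libraries, 1 point per library, in panels by the type of partner the protein recruits. KLF10 is the highest line in every library, KLF5 peaks at 2.5 μM, and KLF13 goes down from 11.9 to 3.49 FPKM.

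Of the activator-type members, KLF2, KLF4 and KLF6 were higher at both doses, KLF5 at 2.5 μM only, and KLF7 stayed within its spread. KLF6 (ENSG00000067082, chromosome 10, 3775996 to 3785281 on GRCh38, 4 exons in its canonical transcript) is induced by tissue injury and has been described as a growth suppressor in the prostate. Its level was 3.44 FPKM in DMSO, 23.5 with 2.5 μM and 26.0 with 5 μM. Both JG231 libraries stood far above DMSO and close to each other. The log2 changes were 2.73 (interval 2.58 to 2.96) and 2.88 (2.73 to 3.11), against a spread of 0.29. These changes were larger than those of 96.8% of the tested genes at 2.5 μM and 97.1% at 5 μM.

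KLF2 (ENSG00000127528, chromosome 19, 16324826 to 16328685, 3 exons) maintains quiescence in endothelial cells and T cells. It was at 0.678 FPKM in DMSO, 3.58 with 2.5 μM and 3.71 with 5 μM, which correspond to about 31, 205 and 252 fragments. The low DMSO count made its size less certain than that of KLF6. Its log2 changes were 2.24 (interval 1.83 to 2.98) and 2.29 (1.90 to 3.03), with a spread of 0.55. Of 8 endothelial and blood cell markers, PECAM1, PTPRC, CD3E and HBB were among those listed at 0 in all 3 libraries, and the summed level of the list was 5.21 FPKM in DMSO, 0.741 with 2.5 μM and 0.581 with 5 μM. The sum in DMSO came mostly from CDH5, at 4.92 FPKM, and the part of these cells in the KLF2 values was not tested.

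KLF4 (ENSG00000136826, chromosome 9, 107484852 to 107490482, 5 exons) is a reprogramming factor that also drives epithelial differentiation. It was measured at 4.03 FPKM in DMSO, 12.4 with 2.5 μM and 14.3 with 5 μM, a 3.07-fold and a 3.55-fold increase. The log2 changes of 1.60 and 1.80 were several times its spread of 0.31, and the JG231 libraries differed by less than that spread.

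KLF5 (ENSG00000102554, chromosome 13, 73054976 to 73077541, 4 exons), which promotes proliferation of epithelial progenitors, behaved differently at the 2 doses. Its level was 28.4 FPKM in DMSO, 56.2 with 2.5 μM and 30.6 with 5 μM. The 2.5 μM library was thus the high one, and DMSO and 5 μM lay close together. The log2 change was 0.98 (interval 0.90 to 1.07) at 2.5 μM and 0.11 (0.02 to 0.20) at 5 μM, with a spread of 0.22. Leaving mitochondrial and small RNA genes out of the scaling gave the value at 5 μM the opposite sign, -0.27.

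KLF7 (ENSG00000118263, chromosome 2, 207074137 to 207173856, 4 exons) supports axon outgrowth in neurons. Its level was 3.23 FPKM in DMSO, 2.58 with 2.5 μM and 3.05 with 5 μM. The 3 libraries were close, and the log2 changes of -0.31 and -0.08 were smaller than the spread of 0.58. Its canonical transcript is the longest among the members, 8365 bases, and with the trend of change on transcript length removed the value at 5 μM became 0.38.

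**Figure D2:**
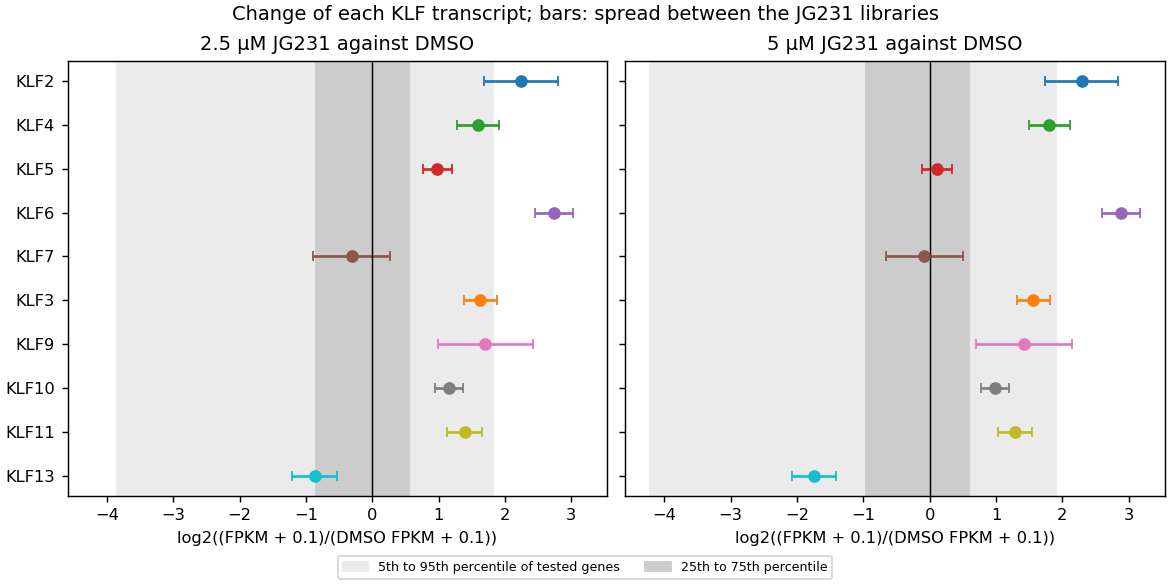
Log2 change against DMSO of each KLF transcript at 2.5 μM (left) and 5 μM JG231 (right); bars are the spread between the JG231 libraries for genes of similar level, and grey bands the central ranges of all tested genes. KLF2 and KLF6 lie above the 95th percentile at both doses, while KLF13 lies left of 0 and KLF7 within its spread.

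KLF3 (ENSG00000109787, chromosome 4, 38664197 to 38701517, 6 exons), the CtBP-dependent repressor of the set, functions in blood cell and adipose development. It was at 9.83 FPKM in DMSO, 30.5 with 2.5 μM and 29.2 with 5 μM. The JG231 libraries were about equal and both were well above DMSO. The increase was 3.11-fold and 2.97-fold, with log2 changes of 1.63 (interval 1.53 to 1.74) and 1.56 (1.46 to 1.68) and a spread of 0.25. The antisense gene KLF3-AS1 overlaps this locus and stayed under 1 FPKM in each library. CTBP1, the corepressor gene, had log2 changes of 0.08 and 0.03, and CTBP2 of -0.04 and -0.32.

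Among the SIN3-binding members, KLF9, KLF10 and KLF11 were higher at both doses and KLF13 was lower at both. KLF10 (ENSG00000155090, chromosome 8, 102648784 to 102655725, 4 exons), known as a TGF-β inducible early gene, was the most abundant member. It had 43.2 FPKM in DMSO, 96.7 with 2.5 μM and 85.9 with 5 μM. Both JG231 libraries were about the same multiple of DMSO, 2.24 and 1.99. The log2 changes were 1.16 and 0.99, with a spread of 0.21. Its close paralog KLF11 (ENSG00000172059, chromosome 2, 10042849 to 10054836, 4 exons), also TGF-β responsive and active in insulin gene regulation, had 13.3 FPKM in DMSO, 35.0 with 2.5 μM and 32.4 with 5 μM. This pattern resembled that of KLF10, with log2 changes of 1.39 and 1.28 and a spread of 0.26.

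KLF9 (ENSG00000119138, chromosome 9, 70384604 to 70414657, 2 exons) is induced by glucocorticoid and thyroid hormones. It was low in DMSO, at 0.685 FPKM or about 57 fragments, and had 2.46 FPKM at 2.5 μM and 2.0 at 5 μM, or about 260 and 250 fragments. The log2 changes of 1.70 (interval 1.43 to 2.29) and 1.42 (1.13 to 1.99) were 2.37 and 1.98 times its spread of 0.72, the smallest ratios to the spread among the members higher at both doses.

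KLF13 (ENSG00000169926, chromosome 15, 31326835 to 31435665, 2 exons) activates chemokine expression in T cells and takes part in heart development. Its level was 11.9 FPKM in DMSO, 6.48 with 2.5 μM and 3.49 with 5 μM. The 3 libraries were in the order of dose and each step was larger than the spread of 0.33. The log2 change was -0.87 (interval -1.0 to -0.76) at 2.5 μM and -1.74 (-1.92 to -1.63) at 5 μM, from about 1313, 904 and 575 fragments. Genes with long transcripts were lower after JG231 in general, and the 500 protein-coding genes nearest in length to the 6845 bases of KLF13 had median changes of -0.23 and -0.41. With the length trend removed, the KLF13 changes were -0.67 and -1.37. Over the 10 members, the corresponding medians of the nearest genes in length ranged from -0.23 to 0.10 at 2.5 μM and from -0.45, for KLF7, to 0.10 at 5 μM.

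Between the JG231 libraries, 8 of the 10 members differed by less than their spread. The others were KLF5 and KLF13, both lower at 5 μM. The log2 difference, 5 μM against 2.5 μM, was -0.87 for KLF5 (interval -0.95 to -0.80) and -0.87 for KLF13 (-1.05 to -0.74). In this comparison 38.3% of the genes over 1 FPKM in either JG231 library differed by more than the spread. When the libraries were rescaled to a common sum, 4 members and 44% of genes were apart, and without mitochondrial and small RNA genes in that sum 3 members and 39.5% of genes were. The remaining log2 differences ranged from -0.28 for KLF9 to 0.23 for KLF7.

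KLF10 had the highest level of the 10 members in all 3 libraries. In DMSO it was followed by KLF5, then by KLF11, KLF13 and KLF3, then by KLF4, KLF6 and KLF7, and last by KLF9 and KLF2. Within each of these 3 sets neighbours differed by less than the larger of their spreads, and between the sets they differed by more. With 5 μM JG231 the order was KLF10, KLF11, KLF5, KLF3 and KLF6, and the levels from KLF11 to KLF6 did not differ from one to the next beyond the spread. KLF4 stood below these, and KLF2, KLF13, KLF7 and KLF9 came last. KLF13 moved from rank 4 in DMSO to 8 at 5 μM, and KLF6 from 7 to 5. The summed FPKM of the 10 members was 118.7 in DMSO, 269.4 with 2.5 μM and 230.7 with 5 μM. SIN3-binding members made up 58.2%, 52.2% and 53.7% of these sums, and the activator-type members 33.5%, 36.5% and 33.7%.

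Of the 8 other KLF genes, KLF14, KLF17 and KLF18 were listed at 0 in every library, and KLF8 stayed under 1 FPKM. The filter was passed by 4 at 2.5 μM, of which 3 (75%) were higher and 1 (25%) lower. At 5 μM 3 passed, of which 2 (66.7%) were higher and 1 (33.3%) lower. The shares of all genes were 36.4% higher and 43.4% lower at 2.5 μM, and 36.5% and 45.1% at 5 μM. KLF16, a further SIN3-binding member, had 8.12 FPKM in DMSO, 15.8 with 2.5 μM and 16.0 with 5 μM, with log2 changes of 0.95 and 0.97 with a spread of 0.30. KLF15, which regulates amino acid and glucose metabolism, had 1.81, 4.41 and 3.66 FPKM, log2 changes of 1.24 and 0.98 with a spread of 0.53. Both of these were therefore higher at each dose, like most members. KLF12, which like KLF3 binds CtBP, had 2.12, 1.17 and 1.07 FPKM, and its log2 changes of -0.80 and -0.93 lay on either side of its spread of 0.89. KLF1, the erythroid factor, was listed at 0 in DMSO and had 1.01 FPKM at 2.5 μM and 0.593 at 5 μM, or about 33 and 23 fragments, so at 2.5 μM it could be counted only as higher.

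The SP factors share the zinc finger type of the KLF proteins and bind GC boxes. Of 9 SP genes, 7 passed the FPKM filter. At 2.5 μM 3 (42.9%) were higher and 3 (42.9%) lower, with a median of -0.13. At 5 μM 2 (28.6%) were higher and 4 (57.1%) lower, with a median of -0.25. The shares of all genes were 36.4% higher and 43.4% lower at 2.5 μM, and 36.5% and 45.1% at 5 μM. SP1 had 16.0 FPKM in DMSO, 20.7 with 2.5 μM and 21.2 with 5 μM, and SP3 had log2 changes of 0.73 and 0.34. SP2 had 7.92, 10.2 and 7.42 FPKM, SP4 4.94, 3.43 and 4.12, and SP8 3.48, 2.47 and 2.46. These differences were smaller than those of most KLF members. SP5 had 1.45, 1.31 and 0.908 FPKM and SP6 had 1.63, 0.879 and 0.724, while SP7 and SP9 stayed under 1 FPKM. SP6 at both doses and SP5 at 5 μM passed the filter through DMSO alone, so they could not have been counted as higher.

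**Figure D3:**
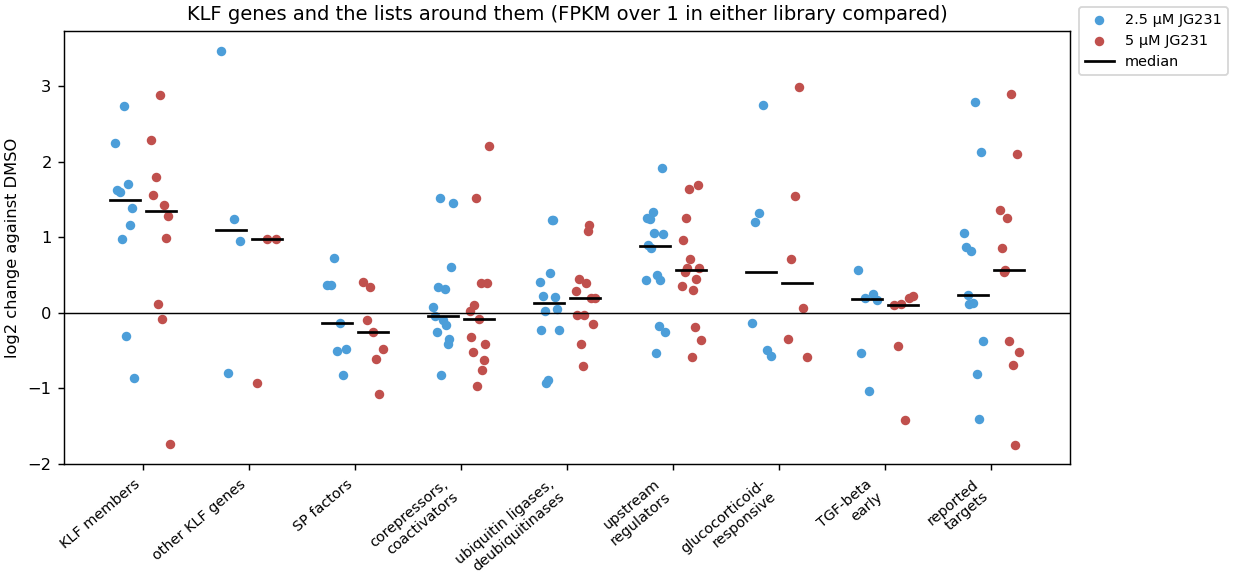
Log2 change against DMSO at 2.5 μM (blue) and 5 μM JG231 (red) of genes over 1 FPKM in either library compared, for the 10 KLF members and the lists around them; black lines are medians. The medians of the KLF members are 1.49 and 1.35, or 1.28 and 1.14 without KLF2 and KLF9, which were under 1 FPKM in DMSO; the topmost point of the other KLF genes is KLF1, listed at 0 in DMSO, whose position depends on the pseudocount.

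Of 16 genes that encode upstream regulators of KLF transcription 14 passed the filter, and 11 (78.6%) were higher and 2 (14.3%) lower at each dose, against 36.4% and 43.4% of all genes at 2.5 μM and 36.5% and 45.1% at 5 μM, with medians of 0.88 at 2.5 μM and 0.56 at 5 μM. SRF, the serum response factor that drives early response genes, had 6.89 FPKM in DMSO, 17.4 with 2.5 μM and 21.6 with 5 μM. YAP1, the Hippo pathway coactivator, had 2.80, 10.9 and 9.28 FPKM. The kinase MAP2K5 and the transcription factor MEF2C belong to the pathway that induces KLF2 and KLF4 in endothelial cells. MAP2K5 had 2.77, 6.75 and 5.47 FPKM, and MEF2C had 1.80, 4.4 and 4.43. Each of these 4 genes was higher in both JG231 libraries than in DMSO by more than its spread. MAPK7, another kinase gene of this list, had log2 changes of 0.43 and 0.35, within its spread of 0.45. Any part of these regulators in the KLF changes was not tested.

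The glucocorticoid and TGF-β response lists were mixed. Of all genes, 36.4% were higher and 43.4% lower at 2.5 μM, and 36.5% and 45.1% at 5 μM. Of 6 glucocorticoid-responsive genes, 3 (50%) were higher and 2 (33.3%) lower at either dose, with medians of 0.53 and 0.39. At 2.5 μM ZBTB16 passed the filter through DMSO alone, so it could not have been counted as higher there. DUSP1, a MAPK phosphatase that many stresses also induce, had 5.48 FPKM in DMSO, 37.3 with 2.5 μM and 44.1 with 5 μM, and the clock gene PER1 had 2.96, 7.52 and 8.79. TSC22D3 had 1.96, 4.62 and 3.25 FPKM, while the kinase gene SGK1 was lower, with 18.7, 12.5 and 12.4. Of 8 TGF-β early genes 6 passed the filter. At 2.5 μM 1 (16.7%) was higher and 2 (33.3%) lower, with a median of 0.18. At 5 μM 0 were higher and 2 (33.3%) lower, with a median of 0.10. SKI, an inhibitor of SMAD signalling, had 13.2 FPKM in DMSO, 6.39 with 2.5 μM and 4.89 with 5 μM, and SMAD6 had 4.21, 2.88 and 3.06. The other genes named by the rule, TGIF1 and BAMBI, had log2 changes between 0.17 and 0.24.

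All 13 corepressor and coactivator genes passed the filter, with 5 higher and 4 lower at 2.5 μM, 4 higher and 6 lower at 5 μM, and medians of -0.04 and -0.08. These shares, 38.5% and 30.8% at 2.5 μM and 30.8% and 46.2% at 5 μM, were near those of all genes. FHL3, a LIM protein that binds KLF3 and CtBP, had 1.06 FPKM in DMSO, 3.06 with 2.5 μM and 5.23 with 5 μM. SAP30, a subunit of the SIN3 complex, had 13.7, 39.5 and 39.3 FPKM. In the same complex HDAC1 was lower, with 76.4, 43.1 and 38.9 FPKM, while SIN3A had 7.75, 6.44 and 5.37 and its paralog SIN3B 8.66, 11.03 and 9.29. NCOR1 had log2 changes of -0.17 and -0.76. Among 12 ubiquitin ligases and deubiquitinases that act on KLF proteins, 4 were higher and 2 lower at 2.5 μM, and 5 higher and 2 lower at 5 μM, with medians of 0.13 and 0.19. For the ligase genes FBXO32 and SIAH1 the log2 changes were 1.23 and 1.22 at the lower dose and 1.16 and 1.08 at the higher dose. VHL, the ligase adaptor of the hypoxia pathway, had -0.93 and -0.71, and SMURF1 0.22 and 0.44, within its spread of 0.51.

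Of 20 reported targets of KLF proteins, 11 passed the filter. At 2.5 μM 5 (45.5%) were higher and 3 (27.3%) lower, with a median of 0.23. At 5 μM 7 (63.6%) were higher and 4 (36.4%) lower, with a median of 0.56. The shares of all genes were 36.4% higher and 43.4% lower at 2.5 μM, and 36.5% and 45.1% at 5 μM. GAP43, a growth cone protein reported downstream of KLF7, had 3.07 FPKM in DMSO, 21.9 with 2.5 μM and 23.4 with 5 μM, while KLF7 itself stayed within its spread. CDKN1A, the cell cycle inhibitor p21 and a target of KLF4 and KLF6, had 97.6, 202 and 250.2 FPKM. MXD1 had 0.705, 3.41 and 3.34 FPKM and passed the filter through the JG231 libraries alone, so it could not have been counted as lower. ATM, the DNA damage kinase, was lower, with 3.35, 1.20 and 0.924 FPKM. At 5 μM ATM passed the filter through DMSO alone, so it could not have been counted as higher there. The KLF2 targets of endothelial cells, THBD, NOS3 and S1PR1, were listed at 0 in all 3 libraries, DMSO included.

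By likeness of pattern, measured as the distance between the pairs of log2 changes over the 3 libraries, MRPL54, GAP43 and PIM1 were nearest to KLF6 among the 7051 protein-coding genes averaging 5 FPKM or more. PIM1, a kinase gene, had 19.5 FPKM in DMSO, 135.0 with 2.5 μM and 140.2 with 5 μM, with log2 changes of 2.78 and 2.84. MRPL54, a mitochondrial ribosomal protein gene, had 2.70 and 2.91. For KLF13 the nearest were RRP1B, LAMB3 and CSAD. RRP1B, a nucleolar protein gene, had 13.1, 7.04 and 4.0 FPKM, log2 changes of -0.88 and -1.68. With 3 libraries such a likeness describes only 2 numbers per gene.

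The 250 bases upstream of 13 annotated starts were searched for 8 of the 10 members, and KLF3 and KLF10 have no entry in the table used. GC boxes (GGGCGG) were present in 8 of the 13 windows and in 42.6% of the 35116 windows of all genes. KLF9 was the member without one at any start. KLF11 had 6 at 1 of its starts, a number reached by 2.22% of windows. CACCC boxes were present in 6 of the 13 windows, which belong to KLF5, KLF7, KLF11 and KLF13, and in 54.7% of all windows. Neither KLF6 nor KLF2 nor KLF4, the activator-type members higher at both doses, had these letters in the window. The core TTGCATC of the elements bound by C/EBP and ATF factors was found in 0 of the 13 windows and in 2.05% of all windows, and the shortened cAMP response element TGACG in 4 of the 13 and in 21.2% of all windows. The MEF2 element was found before KLF2 only, at position -120 from the start, and in 2.80% of all windows. The CArG box, which SRF binds, was found at 1 start of KLF7 and in 1.16% of windows. The MEF2 element and CArG box were added after the sequences had been seen.

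**Figure D4:**
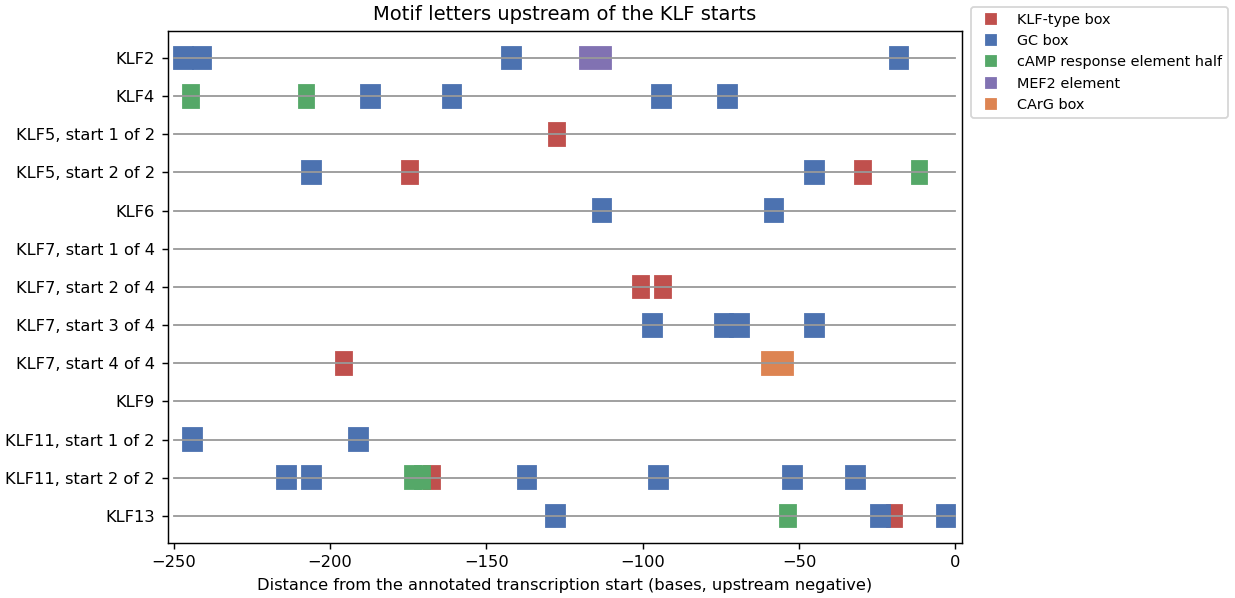
Positions of motif letters on either strand in the 250 bases upstream of each annotated start of 8 KLF genes, with the start at 0 on the right; the KLF-type box is CACCC. GC boxes stand before 7 of these genes, and the purple MEF2 element before KLF2 alone.

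**Figure D5:**
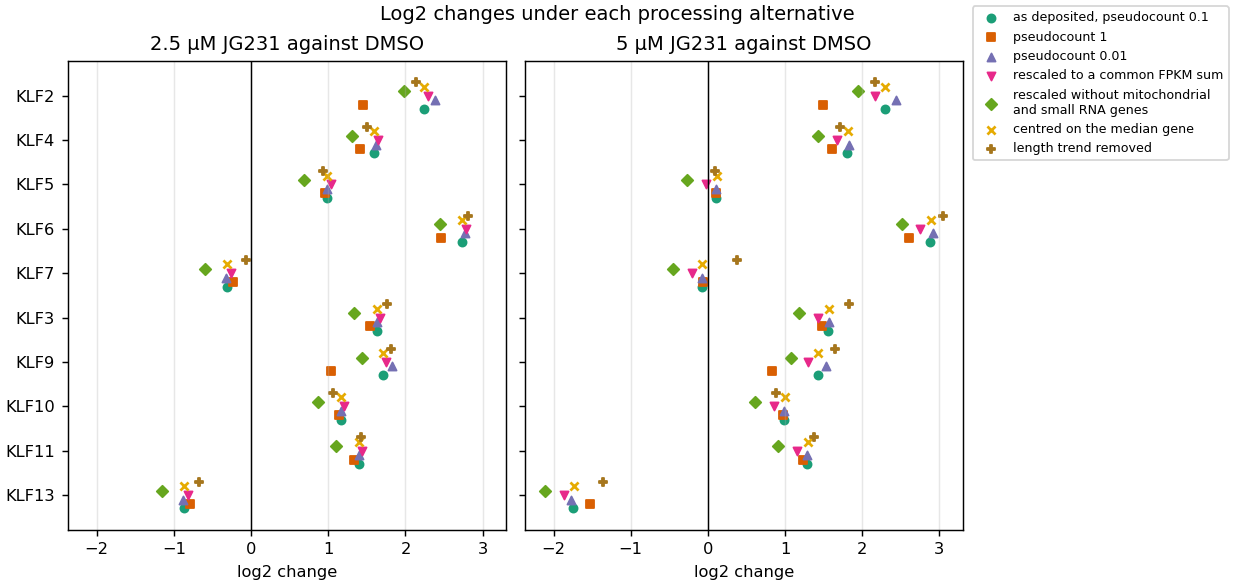
Log2 change against DMSO of each KLF transcript at 2.5 μM (left) and 5 μM JG231 (right), with 1 marker for the values as deposited and for each alternative. KLF2, KLF3, KLF4, KLF6, KLF9, KLF10 and KLF11 stay right of 0 and KLF13 left of 0 under all of them at both doses, while KLF5 and KLF7 at 5 μM have markers on both sides.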

How the data were processed

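RNA-seq libraries of H660 cells, 1 per condition, were made by the authors after 24 h of vehicle (DMSO) or of JG231 at 2.5 μM or 5 μM. The authors deposited gene-level FPKM values for 58735 genes. The paper's methods name HISAT and StringTie, and the submitters' processing notes name HISAT2, featureCounts and GRCh38, so the counting step, its annotation and its use of strand are uncertain. Values of overlapping genes are therefore uncertain too. Identifiers of 58207 genes were found in GENCODE release 44. Fragments were computed as FPKM times canonical transcript length over the value of 1 fragment, an approximation where a gene has several transcripts. FPKM are not counts, so no count model was used.

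Genes over 1 FPKM in either library with an absolute log2 change over 0.25 (pseudocount 0.1) were counted as higher or lower. The members and lists were chosen with earlier results of these data known. All members were named, the other KLF and SP genes by their level, and in each other list up to 4 genes over 1 FPKM with the largest change at 5 μM, provided that both doses gave 1 sign. SIN3A, SIN3B, CTBP1, CTBP2, THBD, NOS3, S1PR1 and single markers were added after their values were seen. Among the neuroendocrine markers 2 were higher and 7 lower at 2.5 μM, and 1 was higher and 8 lower at 5 μM, with medians of -0.44 and -0.84 and log2 changes of -1.84 for CHGA, -1.45 for CHGB and 0.99 for SCG2 at 5 μM. Of 5 fibroblast markers, 0 were over 1 FPKM in DMSO and 1 at 5 μM, and the list summed to between 0.840 and 1.54 FPKM. Upstream windows came from RefSeq. A comparison of the proteins was not made here. Alternatives were pseudocounts of 1 and 0.01, rescalings, centring on the median gene, removal of the length trend by lowess (fraction 0.3), and other filters and thresholds. Scripts were tested on simulated data. Computation used scipy 1.17.1 for intervals, statsmodels 0.14.6 for lowess, matplotlib 3.10.9 for plots, and pandas 2.3.3 with numpy 2.4.6 under Python 3.11.15.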

Additional observations from a re-analysis of the deposited data

How the results depend on the processing

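No paired analysis was possible because each condition has 1 library. Of 180 recomputed changes of single members, 165 stayed within the spread of the value as deposited and 15 moved by more. Among changes past the threshold as deposited, 0 changed sign. Smaller ones did, such as KLF5 at 5 μM, from 0.11 to -0.27, and KLF7 at 5 μM, from -0.08 to 0.38. The small differences between doses of KLF2, KLF3 and KLF6 also took both signs. The counts of higher members stayed between 5 and 8 at both doses. The count of lower members at 2.5 μM was 1 instead of 2 with a pseudocount of 1, with the length trend removed and with a minimum of 5 FPKM, and 0 with a threshold of 1. At 5 μM it was 3 instead of 1 after rescaling without mitochondrial and small RNA genes, which also lowered the median change of the members there from 1.35 to 0.99. The number of members apart between the doses was 4 instead of 2 after rescaling to a common sum. With 1 library per condition the variation between cultures is unknown. Depth limited KLF2 most among the members, since its DMSO value stood on about 31 fragments. A pseudocount of 1 lowered its change at 5 μM from 2.29 to 1.49. The filter on FPKM over 1 in DMSO and the alternatives for the comparison between doses were chosen after seeing the data.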
